A study of Homo sapiens with 15 samples.

Results

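The oxidative phosphorylation subunits of HepG2 cells were examined by the genome that encodes them. The members were gene symbols of the patterns NDUFA, NDUFB, NDUFC, NDUFS or NDUFV with a number, SDHA to SDHD, names starting with UQCR, COX4 to COX8, and the protein genes of mitochondrial DNA (MT-ND, MT-CO, MT-CYB and MT-ATP). Of 130 matching symbols, 50 had the ending of a processed pseudogene (P and a number) and were dropped, which left 80 of the 35012 gene symbols in the table: 67 encoded in the nucleus and 13 in mitochondrial DNA. The 13 are 7 subunits of complex I, 1 of complex III, 3 of complex IV and 2 of complex V, the ATP synthase, whose nuclear-encoded subunits fall outside the patterns. HepG2 is an established cell line from a human liver cancer. Its cells received by lentivirus short hairpin RNAs that were non-silencing (NS, 4 libraries) or directed at BRG1 (4), at BRM (3) or at both (Double, 4). BRG1, encoded by SMARCA4, and BRM, encoded by SMARCA2, are the alternative ATPases of SWI/SNF chromatin remodelling complexes. Cells of all groups, the NS control included, were infected with polybrene, kept under puromycin selection and collected on day 5. The number of hairpin sequences per gene is not given in the sources used here.

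The respiratory chain passes electrons from NADH (through complex I) and from succinate (through complex II, succinate dehydrogenase) to ubiquinone, then through complex III and cytochrome c to complex IV, which reduces oxygen. Complexes I, III and IV are assembled from subunits of both genomes, with the catalytic membrane subunits made inside the organelle, whereas complex II is encoded wholly in the nucleus and also belongs to the citric acid cycle. Mitochondrial DNA is transcribed by its own polymerase into long precursors that are cut into single messages, and nuclear factors such as NRF1 and GABPA (also called NRF2) are known to act on promoters of nuclear-encoded subunits.

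The libraries held 11500149 to 27187991 estimated counts each. SMARCA4 stood at 307 ± 6.98 CPM (counts relative to the library total, scaled by TMM factors, mean ± SD, n = 4) in NS, 27.8 ± 2.32 in BRG1 (n = 4), 346 ± 86.6 in BRM (n = 3) and 46.2 ± 6.09 in Double libraries (n = 4), and SMARCA2 at 39.2 ± 4.05, 25.8 ± 3.64, 4.38 ± 2.22 and 2.56 ± 0.299. In every group libraries 1 and 2 stood apart from libraries 3 and 4, and 55.6% of the 14621 genes tested differed between these sets. What a number shares, and whether replicates came from separate cultures, is not in the labels, so p-values measure the spread between these libraries. All 10 hepatocyte markers examined (ALB, AFP, APOA1 and others) were detected, with a summed level of 23990 to 37190 CPM in NS, 5578 to 18630 in BRG1, 48850 to 52850 in BRM and 11080 to 25370 in Double libraries. The 9 markers of leukocytes, endothelium, fibroblasts and muscle summed to 20.1 to 71.3 CPM in NS, 46.6 to 246 in BRG1, 22.0 to 34.6 in BRM and 16.8 to 39.6 in Double libraries, with COL1A1 at 10.2 to 239 CPM, and COL1A2, MYH7, ACTN2 and DES each reached at most 0.320, 1.12, 0.550 and 0.391 CPM in any library. The part of these shifts in the results below was not tested. In bulk RNA, fewer cells of a kind and less RNA per cell cannot be told apart.

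The start-site regions of SDHB and SDHA, 2 complex II genes that were higher in the BRM group, and of NDUFB3 and NDUFA7, complex I genes that were lower there, are shown because the nuclear results turn on these genes. Each runs from 250 bases before to 50 bases after the annotated start (RefSeq, GRCh38.p14), 5′ to 3′ on the gene's strand, with matches to 3 short motifs in capitals: GCGCA and GCGC parted by any 1 base (NRF1), CCGGAAG (ETS factors such as GABPA) and AAGATGGC (YY1), searched on both strands. The regions are chr1:17053983-17054282, minus strand; chr5:218070-218369, plus strand; chr2:201071751-201072050, plus strand; and chr19:8321326-8321625, minus strand.
SDHB: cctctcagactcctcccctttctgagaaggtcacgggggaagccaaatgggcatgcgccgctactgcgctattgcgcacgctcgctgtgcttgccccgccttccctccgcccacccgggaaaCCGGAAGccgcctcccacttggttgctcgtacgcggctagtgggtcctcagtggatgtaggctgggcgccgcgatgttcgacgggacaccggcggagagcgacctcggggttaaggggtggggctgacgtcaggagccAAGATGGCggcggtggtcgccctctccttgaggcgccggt
SDHA: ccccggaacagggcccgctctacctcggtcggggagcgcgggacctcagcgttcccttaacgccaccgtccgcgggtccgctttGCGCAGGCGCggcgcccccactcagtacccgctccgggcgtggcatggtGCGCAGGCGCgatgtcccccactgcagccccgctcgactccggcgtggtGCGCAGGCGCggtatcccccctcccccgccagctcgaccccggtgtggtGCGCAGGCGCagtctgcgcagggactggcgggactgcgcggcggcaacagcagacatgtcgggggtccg
NDUFB3: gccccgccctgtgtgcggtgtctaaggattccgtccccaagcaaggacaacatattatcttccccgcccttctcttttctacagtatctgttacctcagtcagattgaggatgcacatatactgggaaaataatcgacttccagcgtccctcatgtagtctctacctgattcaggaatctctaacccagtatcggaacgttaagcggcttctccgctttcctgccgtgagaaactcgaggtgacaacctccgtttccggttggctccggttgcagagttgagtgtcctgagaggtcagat
NDUFA7: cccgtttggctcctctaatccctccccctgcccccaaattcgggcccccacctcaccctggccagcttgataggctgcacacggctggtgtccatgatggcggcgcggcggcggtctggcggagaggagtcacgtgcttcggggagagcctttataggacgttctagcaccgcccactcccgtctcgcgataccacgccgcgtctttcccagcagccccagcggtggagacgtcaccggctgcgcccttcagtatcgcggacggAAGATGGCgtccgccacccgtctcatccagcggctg
SDHB held an ETS match starting 128 bases before the start and a YY1 match 11 bases after it. SDHA held 4 NRF1 matches, 166, 117, 68 and 19 bases before the start, a spacing of 49 bases each time. NDUFB3 held none of the 3 motifs, and NDUFA7 a YY1 match 15 bases after the start. The NDUFB3 region lies wholly inside the span of the gene in GENCODE v29, so bases before that span were not searched. Of the 67 nuclear members, 56 had an entry in the promoter table, and 13 of these (23.2%) held the NRF1 motif, 15 (26.8%) the ETS motif and 8 (14.3%) the YY1 motif. The same motifs were in 11.3%, 18.6% and 5.19% of the 10517 promoters of tested genes, and in 5.78%, 10.3% and 2.89% of all 35116. A match is a description of letters, not of binding.

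The mitochondrial genes are compact and some share bases, which bears on how reads are divided between them. In the mitochondrial genome of GRCh38 (GENCODE v29), the end of MT-ATP8 and the start of MT-ATP6 overlap by 46 bases at chrM:8527-8572, and the end of MT-ND4L and the start of MT-ND4 by 7 bases at chrM:10760-10766 (shared bases in capitals, plus strand).
MT-ATP8 and MT-ATP6, chrM:8497-8602: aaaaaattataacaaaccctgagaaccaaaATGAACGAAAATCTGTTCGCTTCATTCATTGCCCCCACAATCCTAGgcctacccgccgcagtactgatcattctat
MT-ND4L and MT-ND4, chrM:10730-10796: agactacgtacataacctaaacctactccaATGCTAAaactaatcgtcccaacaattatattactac
Each pair is known to be carried on a shared message. Levels of these 4 genes therefore depend on how the counting step split shared reads.

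Of the 67 nuclear members, 61 passed the filter on low counts. The 6 that did not are tissue-type isoforms of complex IV subunits: COX4I2, COX6A2, COX6B2, COX7A1, COX7B2 and COX8C, with 0 to 11 counts summed over the libraries of any group. In edgeR's quasi-likelihood test (Benjamini-Hochberg adjustment over all 14621 genes, called at an adjusted p under 0.05), the BRG1 hairpin changed 3 nuclear members, all lower, the BRM hairpin 12 (9 higher, 3 lower), and the double knockdown 7 (3 higher, 4 lower). The share of all genes called was 22.5% for BRG1 (12.5% higher, 9.97% lower), 13.9% for BRM (7.66%, 6.26%) and 21.6% for Double (11.8%, 9.9%), against 4.92%, 19.7% and 11.5% of these 61. The median log2 fold change of the 61 was -0.09 in BRG1, 0.24 in BRM and 0.07 in Double, beside 0.02, 0.03 and 0.02 over all genes. All 3 comparisons share the NS libraries. With the library number as a block, 9 members were called in BRG1 (5 higher, 4 lower, with 36.4% of all genes) and 13 in Double (8 higher, 5 lower, 35.6%).

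The nuclear counts differed by library set, in a fit with a mean for each group and set. In BRG1, 0 members were higher and 17 lower within libraries 1 and 2 (median log2 fold change -0.29, 46 of 61 below 0, with 40.5% of all genes called), and 5 were higher and 2 lower within libraries 3 and 4 (median 0.12, 45 of 61 above 0, 27.3%). In BRM, 16 were higher and 4 lower within libraries 1 and 2 (median 0.16, 29.7%) and 14 higher and 3 lower within libraries 3 and 4 (median 0.34, 22.9%). In Double, 5 were higher and 6 lower (median 0.01, 30.5%) and 4 higher and 4 lower (median 0.03, 36.2%). The 3 members called in the pooled BRG1 comparison (NDUFB2, SDHB and UQCRC2) were lower in both sets. Their log2 fold changes were -1.40, -0.72 and -0.57 within libraries 1 and 2 and -0.51, -0.46 and -0.64 within libraries 3 and 4. The BRG1 median did not keep its direction, since most members lay above 0 in libraries 3 and 4.

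**Figure D1:**
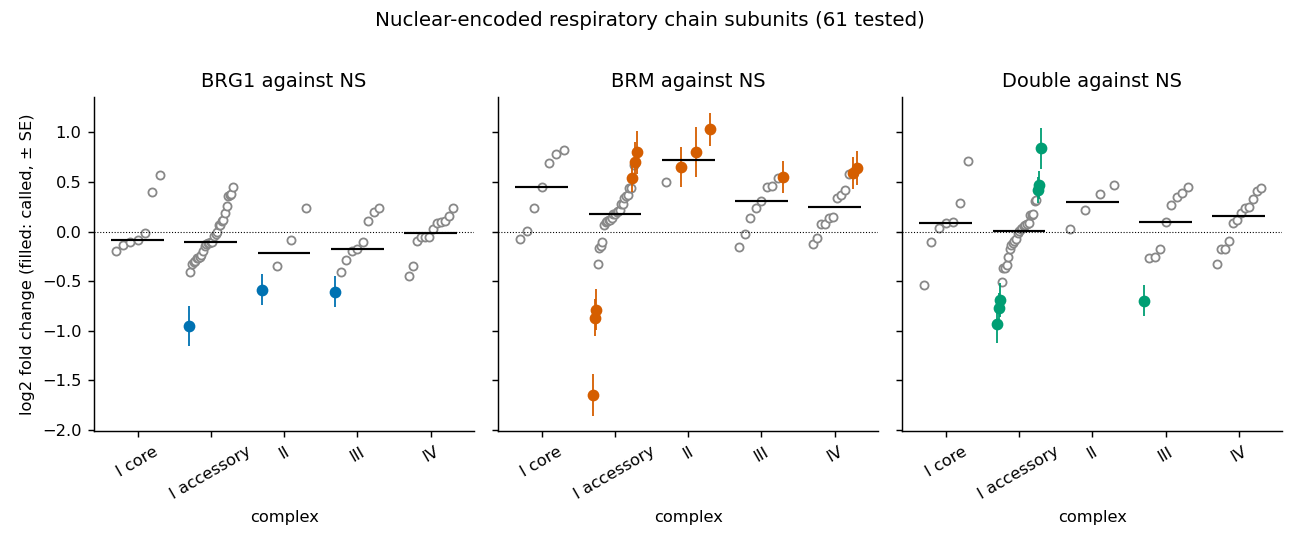
Log2 fold change against NS of the 61 tested nuclear-encoded subunits by complex in the 3 knockdown groups. Filled points with SE bars are members called at an adjusted p under 0.05, open points are not called, and horizontal lines are medians. Only lower members are filled in the BRG1 panel, and 3 of the 4 complex II subunits are filled above 0 in the BRM panel.

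In the fit with group means alone, the members called in more than 1 comparison with NS were SDHB, NDUFA6, NDUFB6, NDUFB3, NDUFA7 and UQCRC2. The matching overlap of calls over all genes was not counted, so these numbers have no background beside them. SDHB was the 1 member called in both single knockdowns, in opposite directions. NDUFA6 and NDUFB6 were higher and NDUFB3 and NDUFA7 lower in both BRM and Double, which is 2 of 9 and 2 of 3 higher and 2 of 3 and 2 of 4 lower calls, and UQCRC2 was lower in both BRG1 and Double. In that fit no member was called in all 3. With a term for the library set added, members called in all 3 included NDUFA6 and NDUFB4, both higher. In the order BRG1, BRM and Double, edgeR's adjusted p-values were 0.0299, 0.00129 and 0.000167 for NDUFA6 and 0.0229, 0.0303 and 0.0105 for NDUFB4. Of all genes, 39.1, 32 and 38.6% were called with that term.

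Complex II held the subunit that moved in opposite directions in the single knockdowns. SDHB (chr1:17018722-17054170), the iron-sulfur subunit, gave 61.5, 57.95, 55.6 and 62.8 CPM in the NS libraries, 39.2, 33.02, 44.2 and 42.1 in BRG1, 123, 147 and 94.5 in BRM and 72.1, 81.8, 62.6 and 60.4 in Double, each in library order. The BRG1 values all lay under, and the BRM values all over, every NS value, while the Double values overlapped NS. SDHB fell to 0.667 of NS in BRG1 (log2 fold change -0.59 ± 0.16 (SE), adjusted p = 0.0149) and rose 2.04-fold in BRM (log2 fold change 1.03 ± 0.17, adjusted p = 0.00114). In Double its log2 fold change was 0.22 ± 0.16 with an adjusted p of 0.367. The BRG1 and BRM calls held with every library left out in turn and under all other alternatives run.

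SDHA (chr5:218241-256700), the flavoprotein that binds succinate, gave 192, 175, 297 and 268 CPM in NS, 148, 139, 207 and 239 in BRG1, 301, 442 and 473 in BRM and 201, 203, 252 and 297 in Double. Every BRM library was above every NS library, although libraries 3 and 4 were higher than 1 and 2 within NS too, and SDHA rose 1.74-fold (log2 fold change 0.80 ± 0.25, adjusted p = 0.0488). SDHC, a membrane anchor subunit that helps form the ubiquinone site, gave 112, 101, 156 and 154 CPM in NS and 159, 258 and 198 in BRM, and rose 1.57-fold (log2 fold change 0.65 ± 0.20, adjusted p = 0.0438). The other anchor, SDHD, gave 49.7, 52.6, 50.2 and 51.2 in NS and 71.8, 93.0 and 50.9 in BRM, where library 3 lay inside the NS range, and was not called (adjusted p = 0.0920). Within libraries 1 and 2, in a fit with a mean for each group and set, all 4 subunits passed the test in BRM, as did 29.7% of all genes (log2 fold changes 1.02, 1.18, 0.97 and 0.69 from SDHA to SDHD). Within libraries 3 and 4, with 1 BRM library and 22.9% of all genes called, SDHA and SDHB passed (0.74 and 0.67) and SDHC and SDHD did not (0.36 and 0.00). The lone library is assumed to vary like the others. The SDHA call ended without NS library 1, 2 or 4 or BRM library 2 or 3 (highest adjusted p 0.225), the SDHC call without NS library 1 or 2 or BRM library 2 or 3 (highest 0.352), and both ended with DESeq2's size factors.

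**Figure D2:**
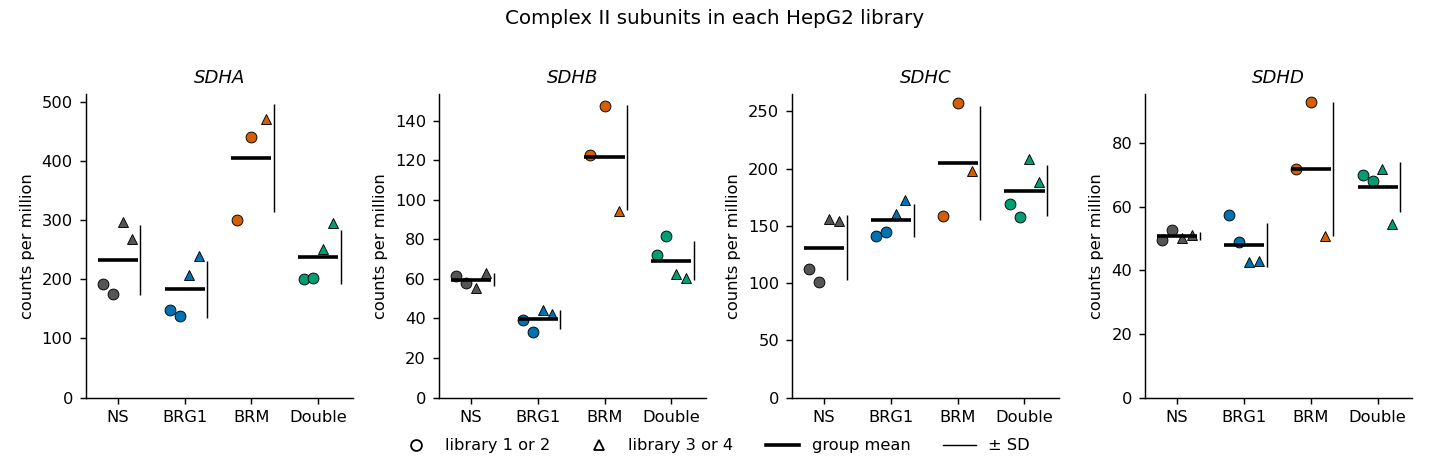
CPM of SDHA, SDHB, SDHC and SDHD in each library by group, with circles for libraries 1 and 2 and triangles for libraries 3 and 4. Thick lines are group means and thin vertical lines ± SD. In the SDHB panel the BRG1 libraries lie below and the BRM libraries above all NS libraries.

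Complex I accessory subunits, which surround the catalytic core, included the largest decrease among all nuclear members. NDUFB3 (chr2:201071433-201085750), a small membrane arm subunit, gave 40.9, 41.7, 29.8 and 32.1 CPM in NS, 46.7, 42.6, 41.4 and 33.9 in BRG1, 13.8, 10.4 and 10.5 in BRM and 21.96, 22.7, 17.6 and 13.6 in Double. All BRM and all Double libraries were below every NS library, and the BRG1 values overlapped NS. NDUFB3 fell to 0.320 of NS in BRM (log2 fold change -1.65 ± 0.21, adjusted p = 0.000264) and to 0.525 in Double (log2 fold change -0.93 ± 0.19, adjusted p = 0.00276), and both calls held under every alternative run. In BRG1 the log2 fold change was 0.19 ± 0.19 (adjusted p = 0.538).

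NDUFA7 (chr19:8308768-8321396), an accessory subunit of the matrix arm, gave 24.5, 24.3, 26.6 and 24.8 CPM in NS, 12.6, 12.7 and 15.8 in BRM and 13.4, 18.4, 14.7 and 15.6 in Double, with no overlap with NS in either. It fell in BRM (log2 fold change -0.87 ± 0.19, adjusted p = 0.00765) and in Double (log2 fold change -0.69 ± 0.17, adjusted p = 0.0105), and kept both calls under every alternative run. NDUFB5, also of the membrane arm, gave 51.9, 51.4, 38.9 and 39.01 in NS and 27.1, 31.2 and 20.5 in BRM, and fell there (log2 fold change -0.79 ± 0.21, adjusted p = 0.0223). This call ended without NS library 1 or BRM library 3, at adjusted p-values up to 0.0642. NDUFB2, the member with the largest decrease in BRG1, gave 31.98, 38.4, 28.03 and 26.1 CPM in NS and 15.1, 11.5, 20.8 and 17.1 in BRG1 and fell to 0.518 of NS (log2 fold change -0.95 ± 0.20, adjusted p = 0.00371), in every alternative run.

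NDUFC2 (chr11:78068304-78080219), a membrane arm subunit, gave 288, 269, 223 and 207 CPM in NS and 134, 174, 137 and 132 in Double, where all libraries were below NS. It fell in Double (log2 fold change -0.77 ± 0.15, adjusted p = 0.00221). Library 2 stood apart from the other 3 in the BRG1 group (166 CPM beside 205 to 211) and in the Double group (174 beside 132 to 137). The readthrough gene NDUFC2-KCTD14 shares 11562 bases with NDUFC2 on the same strand, so the split of reads between them is uncertain. In all, 39 nuclear members overlap another annotated gene. Among called members, NDUFA7 shares 12612 bases with AC010323.1, NDUFB2 5485 with ADCK2, COX6A1 2545 with AL021546.1 and UQCR11 8274 with AC005943.1. Each of these is a protein-coding gene on the same strand, and how reads were split between them was not tested.

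Among the 29 accessory subunits as many rose as fell in BRM (3 and 3) and in Double (3 and 3). NDUFA6, which binds the mitochondrial acyl carrier protein, gave 52.3, 53.9, 38.6 and 36.7 CPM in NS, 75.6, 96.95 and 63.96 in BRM and 82.4, 108, 76.7 and 57.8 in Double, and rose in BRM (log2 fold change 0.80 ± 0.22, adjusted p = 0.0267) and Double (log2 fold change 0.84 ± 0.21, adjusted p = 0.00948, the largest increase among the nuclear members there). No BRM or Double value overlapped NS. Without BRM library 2, NS library 3 or NS library 4 the BRM call ended (adjusted p up to 0.175), and without Double library 2 the Double call (0.0517). NDUFB6 gave 25.6, 25.4, 22.5 and 23.8 in NS, 32.4, 42.2 and 31.8 in BRM and 33.4, 31.8, 38.5 and 30.9 in Double and rose in both (log2 fold change 0.54 ± 0.15, adjusted p = 0.0262 and log2 fold change 0.47 ± 0.14, adjusted p = 0.0267). Its BRM call ended without NS library 2, 3 or 4 or BRM library 2 (up to 0.224), and its Double call without any 1 library except NS library 1 (up to 0.142). NDUFA2 of the matrix arm rose in BRM (log2 fold change 0.70 ± 0.20, adjusted p = 0.0332), from 39.3, 41.1, 35.5 and 30.7 CPM in NS to 51.4, 70.7 and 56.5, a call that held without BRM library 1 and ended without any other (up to 0.22). NDUFB4 passed in Double (log2 fold change 0.42 ± 0.13, adjusted p = 0.0370) and in no fit that left out 1 of its 8 libraries (0.067 to 0.174).

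**Figure D3:**
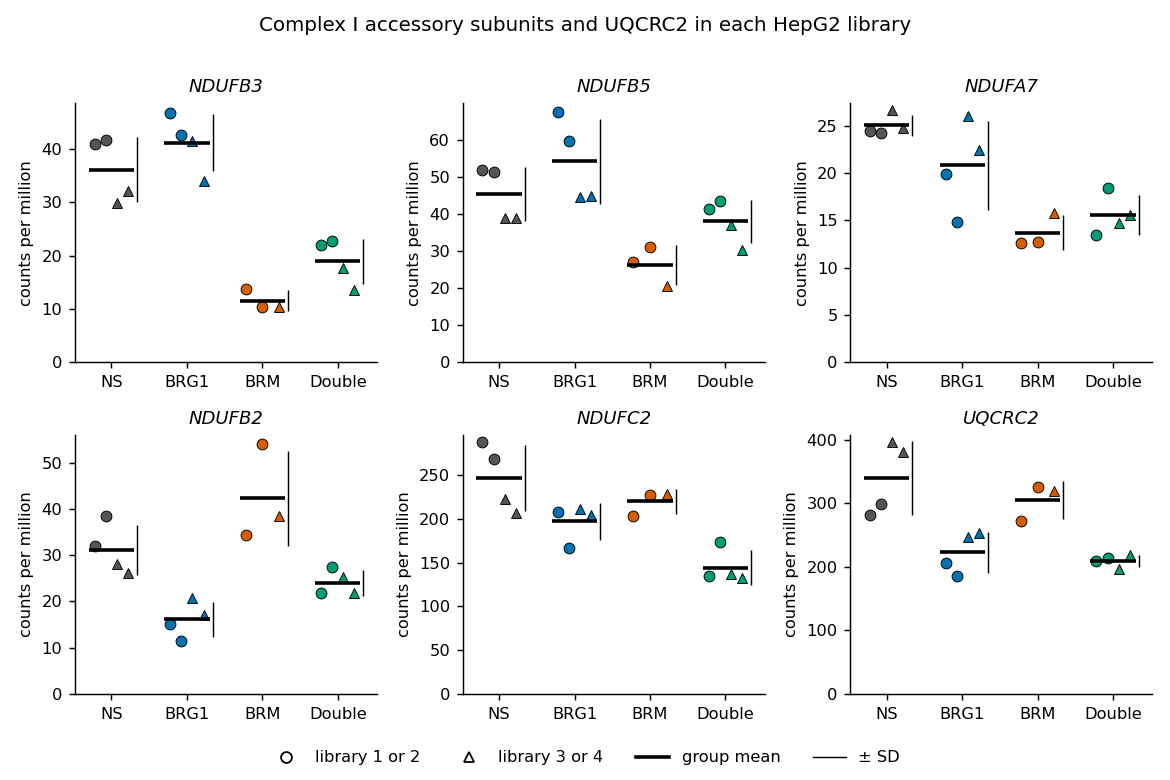
CPM of 5 complex I accessory subunits and of UQCRC2 of complex III in each library by group, with circles for libraries 1 and 2 and triangles for libraries 3 and 4. Thick lines are group means and thin vertical lines ± SD. NDUFB3 is low in BRM and Double, NDUFB2 in BRG1, and UQCRC2 in BRG1 and Double.

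The 7 nuclear core subunits of complex I, which hold the flavin and the iron-sulfur clusters, gave no call against NS. Among the accessory subunits, NDUFA8, which faces the intermembrane space, had a log2 fold change of 0.45 ± 0.17 in BRG1 (adjusted p = 0.0691) and passed with the library number as a block (0.019). It was singled out after its values were seen, as were COX7C, lower in BRG1 with the block, and UQCRH, higher in Double with the block. UQCRH has a near-identical copy, UQCRHL, so its value is uncertain. COX6A1, COX7A2L and SDHC were also called higher in Double with the block.

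In complex III, 1 of 9 tested subunits was called in each group. UQCRC2 (chr16:21952660-21983660), a large core protein, gave 282, 299, 397 and 381 CPM in NS, 206, 186, 248 and 252 in BRG1, 272, 326 and 319 in BRM and 209.5, 214, 196 and 218 in Double. BRG1 and Double libraries were all below NS, and BRM libraries overlapped it. UQCRC2 fell in BRG1 (log2 fold change -0.61 ± 0.16, adjusted p = 0.0111) and in Double (log2 fold change -0.70 ± 0.16, adjusted p = 0.00512) under every alternative run. UQCR11, a small subunit, rose in BRM (log2 fold change 0.55 ± 0.16, adjusted p = 0.0355), from 61.6, 63.6, 59.7 and 54.3 CPM in NS to 74.7, 111 and 76.2. That call ended without BRM library 2 or any 1 NS library (up to 0.331).

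Complex IV had no call in BRG1 or Double and 2 of 12 in BRM. COX6A1, the widely expressed form of this subunit, gave 114, 118, 119 and 102 CPM in NS and 137, 207 and 185 in BRM (log2 fold change 0.64 ± 0.17, adjusted p = 0.0246). COX7A2L, which is known to join complexes III and IV in supercomplexes, gave 92.3, 90.4, 96.8 and 96.1 and 116, 187 and 121 (log2 fold change 0.59 ± 0.16, adjusted p = 0.0245). In both, BRM library 2 was the highest of its group. The COX6A1 call ended without BRM library 2 or 3 or NS library 1, 2 or 4 (up to 0.199), and the COX7A2L call without BRM library 2 or NS library 1 or 2 (up to 0.283). In Double every library was above NS for both genes, at adjusted p-values of 0.0665 and 0.0661. Each other paired subunit was present as its widely expressed form: the NS means were 299.9 ± 31.2 CPM for COX4I1, 102 ± 7.56 for COX6B1, 66.6 ± 4.31 for COX7A2, 49.6 ± 12.2 for COX7B and 84.1 ± 12.5 for COX8A (SD, n = 4). None of these 5 was called against NS, with adjusted p-values from 0.251 upwards. Among the tissue-type forms, COX6A2 had 0 counts in every group, COX4I2 and COX7B2 had 0 in NS, BRM and 1 other group each, and COX8C had 0 in NS and BRG1.

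Of the 12 BRM calls, 9 ended in at least 1 fit that left out a library. Without BRM library 2, 4 of 61 members and 6.46% of all genes were called. Without NS library 1 or 2 it was 5 members (11 and 11.1% of all genes), and without NS library 4 it was 6 (10.1%), so calls were lost among all genes too. BRM library 2 was the highest of its group for SDHB, SDHC and SDHD, NDUFA2, NDUFA6 and NDUFB6, UQCR11, COX6A1 and COX7A2L. Scaling to nuclear gene totals moved the split from 9 higher and 3 lower to 5 higher and 3 lower, with 13.6% of all genes called.

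Compared directly, BRM differed from BRG1 in 19 of 61 nuclear members (14 higher, 5 lower) where 33.9% of all genes did (16.7% higher, 17.2% lower), and in 30 (25 higher, 5 lower, 49.4% of all genes) with the library number as a block. SDHB was 3.06-fold higher (log2 fold change 1.62 ± 0.17, adjusted p = 7.76e-06), NDUFB2 2.62-fold (log2 fold change 1.39 ± 0.22, adjusted p = 0.000186), SDHA 2.21-fold (adjusted p = 0.00283) and NDUFA2 2.002-fold (0.00151). UQCRFS1, the Rieske iron-sulfur protein of complex III, was also higher (log2 fold change 0.71 ± 0.18, adjusted p = 0.00717). NDUFB3 was at 0.280 of its BRG1 level (log2 fold change -1.84 ± 0.22, adjusted p = 2.01e-05) and NDUFB5 at 0.485 (adjusted p = 0.00148). These calls held without each library in turn, except that of UQCRFS1 without BRM library 2 (0.0691). NDUFS5, NDUFA7 and NDUFV2, the other lower members, each lost the call without at least 3 single libraries. In all, 6 of the 19 calls held without every library, and without BRM library 2 there were 7 calls, with 26.5% of all genes.

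Double against BRG1, which adds the BRM hairpin, gave 3 of 61 calls (2 higher, 1 lower) where 10.8% of all genes were called (4.1% higher, 6.72% lower). SDHB was higher (log2 fold change 0.80 ± 0.16, adjusted p = 0.00452) and NDUFB3 lower (log2 fold change -1.12 ± 0.19, adjusted p = 0.00177), and both calls held without each library in turn. NDUFB6 was higher (log2 fold change 0.49 ± 0.14, adjusted p = 0.0365), a call that held without BRG1 library 3 or Double library 4 and ended without any 1 of the other 6 (up to 0.111). Double against BRM, which adds the BRG1 hairpin, gave 7 of 61 (19.1% of all genes, 9.32% higher and 9.74% lower), with NDUFB3 higher (log2 fold change 0.72 ± 0.21, adjusted p = 0.0258) and NDUFA2, SDHB, NDUFB2, NDUFC2 and UQCRC2 the first 5 of 6 lower (log2 fold changes -1.06, -0.81, -0.81, -0.61 and -0.54). The NDUFA2 and SDHB calls held without every library, and the other 5 each ended without BRM library 2 or Double library 1. Without either of these there were 2 calls, with 13.1 and 14.6% of all genes. SDHA, the last of the lower members, had a log2 fold change of -0.77 ± 0.25 (adjusted p = 0.0462).

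The 13 mitochondrially encoded members together took 8.26, 8.15, 1.51 and 1.33% of the counts of NS libraries 1 to 4, 7.90, 7.73, 3.55 and 1.78% of BRG1, 8.05, 4.97 and 3.07% of BRM and 6.65, 8.33, 3.46 and 1.79% of Double libraries. In every group libraries 1 and 2 were higher than libraries 3 and 4, and the ranges of the groups overlapped. The means were 4.81% ± 3.92 in NS (SD, n = 4), 5.24% ± 3.06 in BRG1 (n = 4), 5.36% ± 2.51 in BRM (n = 3) and 5.06% ± 2.97 in Double (n = 4). By a two-sided exact permutation test the differences from NS were 0.427 percentage points in BRG1 (p = 0.83), 0.551 in BRM (p = 0.83) and 0.247 in Double (p = 0.771), where 0.0286 is the smallest p these designs allow. BRM has no library 4, so 2 of its 3 libraries are of the higher set, beside 2 of 4 in NS. Its pooled difference therefore also carries the difference between the sets, and it turned negative over same-numbered libraries. Within libraries 1 and 2 the knockdown means differed from NS by -0.391, -1.70 and -0.711 points, and within libraries 3 and 4 by 1.25, 1.65 and 1.21 points. The smallest exact p within a set is 0.333. Leaving out BRG1 library 1 or 2, BRM library 1, Double library 1 or 2, or NS library 3 or 4 turned the sign of the pooled difference it enters, to between -0.912 and -0.285 points. The 67 nuclear members took 0.511 to 0.728% of counts.

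**Figure D4:**
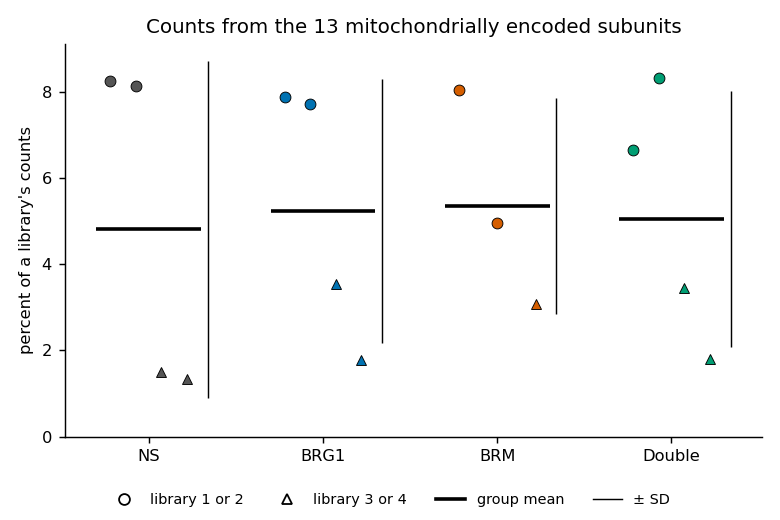
Percent of each library's counts from the 13 mitochondrially encoded subunits, by group, with circles for libraries 1 and 2 and triangles for libraries 3 and 4. Thick lines are group means and thin vertical lines ± SD. The sets lie further apart than the groups: libraries 1 and 2 reach 4.97 to 8.33% and libraries 3 and 4 1.33 to 3.55%.

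Gene by gene, none of the 13 was called against NS in any knockdown by edgeR, none had an unadjusted p under 0.05, and DESeq2 called none. The smallest adjusted p was 0.681 in BRG1, 0.337 in BRM and 0.537 in Double, each for MT-ND4L. The 3 contrasts between knockdowns also gave 0 calls. MT-ND4L, a small membrane subunit of complex I, had 520.1, 433, 148 and 143 CPM in NS, 520, 571, 350.2 and 168 in BRG1, 766, 554 and 397 in BRM and 588, 679, 347 and 161 in Double. Its log2 fold changes were 0.37 ± 0.51, 0.88 ± 0.55 and 0.51 ± 0.51. With the library number as a block it was the 1 mitochondrial member called in Double (0.53, adjusted p = 0.0394, with 35.6% of all genes). It was also called in BRM with the block (0.68, adjusted p = 0.0232, 28.4%) and with a term for the library set (0.87, adjusted p = 0.0259, 32%). In BRM all 13 log2 fold changes were above 0 (12 with totals of nuclear genes), with a median of 0.32 and SEs of 0.39 to 0.91. The median was 0.02 in BRG1 and 0.05 in Double, and the BRG1 median was below 0 with DESeq2's size factors or totals of nuclear genes (-0.02 and -0.03).

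The library sets differed by more than the groups. With a set term, all 13 were lower in libraries 3 and 4 than in 1 and 2 (median log2 difference -1.58, adjusted p-values of 7.99e-06 to 0.000212), while among 61 nuclear members 24 were higher and 13 lower. The difference was largest for MT-ND6 (-2.28 ± 0.28) and smallest for MT-ND3 (-0.85 ± 0.14) and MT-CO3 (-0.94 ± 0.17). MT-ND6, the only member on the light-strand transcript, had 2285, 2065, 223 and 209 CPM in NS, 2032, 1815, 671 and 274 in BRG1, 2176, 1222 and 599 in BRM and 1703, 2376, 645 and 329 in Double. MT-CO3, a core subunit of complex IV, had 7182, 7024, 2680 and 2192 in NS, 7119, 6687, 4895 and 3067 in BRG1, 6874, 5680 and 5318 in BRM and 5679, 7467, 3641 and 2913 in Double. Both were lowest in NS libraries 3 and 4.

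Within the sets the knockdown effects pointed apart. In libraries 3 and 4 all 13 members were above NS in each knockdown, with medians of 0.91 (BRG1), 1.42 (BRM, 1 library) and 0.92 (Double). Called were 3 in BRG1 (MT-ND3, MT-CYB and MT-CO3) and 1 in Double (MT-CYB), where 27.3% and 36.2% of all genes were called. Calls in BRM are not counted here, since they rest on 1 library whose spread is taken from the other groups. MT-ND3 of complex I had a log2 fold change of 0.70 ± 0.19 in BRG1 (adjusted p = 0.0154), and MT-CYB, the cytochrome b of complex III, 0.95 ± 0.34 in Double (0.0451). That of MT-CO2, the copper subunit that accepts electrons from cytochrome c, was 1.42 in BRM, from 1 library. As a share of counts, the gap from NS was wider in library 3 than in library 4. In library 3 the 13 took 3.55% (BRG1), 3.07% (BRM) and 3.46% (Double), beside 1.51% in NS. In library 4 they took 1.78% (BRG1) and 1.79% (Double), beside 1.33% in NS. In libraries 1 and 2 the medians were -0.20, -0.18 and -0.11, with 0 called (40.5%, 29.7% and 30.5% of all genes). The difference between the sets was above 0 for all 13 in each knockdown (medians 1.07, 1.52 and 1.02) but passed the test for none: the smallest adjusted p was 0.0707, 0.0805 and 0.181, and 7, 11 and 3 members had an unadjusted p under 0.05. Of all genes, 2.48%, 2.26% and 3.71% passed.

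**Figure D5:**
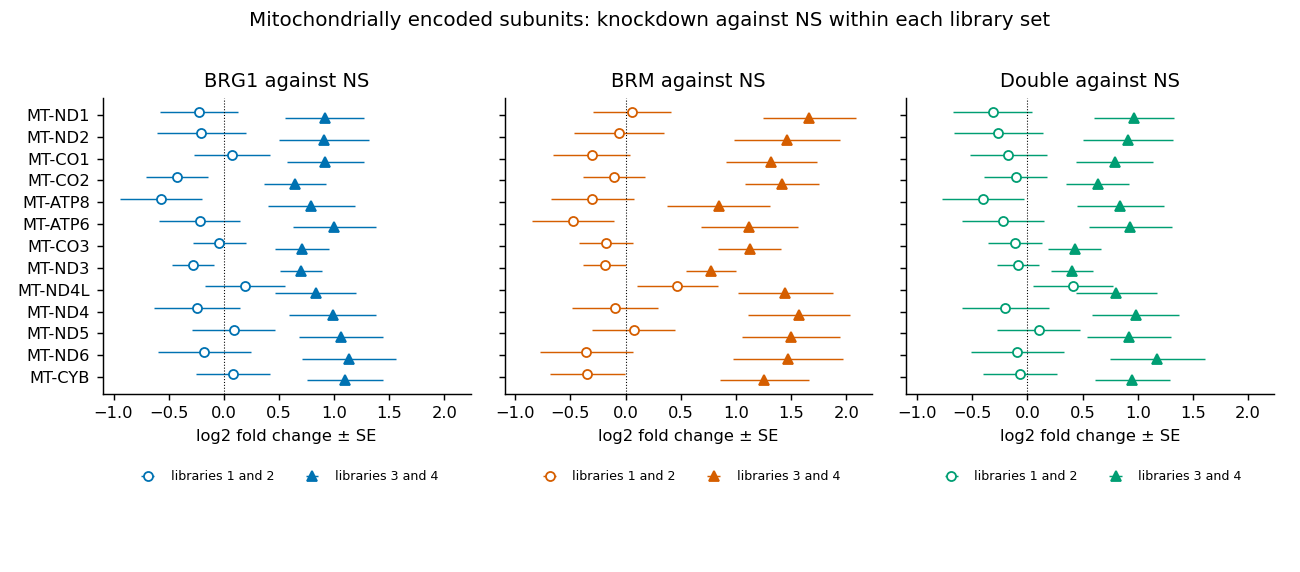
Log2 fold change ± SE of each mitochondrially encoded subunit, in genome order, for each knockdown against NS within libraries 1 and 2 (open circles) and within libraries 3 and 4 (filled triangles). The triangles all lie above 0, whereas the circles lie on both sides of it.

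The order of the 13 in NS, per kilobase of gene, depended on the library set. As means of libraries 1 and 2, MT-CO2 was the highest (13760 CPM per kilobase), followed by MT-ATP6 (10450) and MT-CO1, the catalytic subunit of complex IV (10290), which overlapped each other, then MT-ND4 (9071) and MT-CO3 (9060), which also overlapped. MT-ND1 (5579), MT-ND2 (5504), MT-ND6 (4143), MT-CYB (3998), MT-ND3 (3127), MT-ND5 (2951) and MT-ND4L (1605) followed. As means of libraries 3 and 4, MT-CO3 was the highest (3107 CPM per kilobase) and overlapped MT-CO2 (2987), before MT-CO1 (2196), MT-ATP6 (1607), MT-ND4 (1352) and MT-ND3 (1159). MT-ND1 (956), MT-ND2 (823), MT-CYB (672), MT-ND4L (490.1), MT-ND5 (437) and MT-ND6 (411) came next. MT-ATP8, which shares bases with MT-ATP6, was lowest in both sets (405 and 77.6). As a share of the 13, MT-ND6 made up 2.21 to 3.05% in libraries 1 and 2 and 1.39 to 1.96% in libraries 3 and 4, MT-CO3 8.45 to 10.3% and 11.04 to 16.8%, and MT-ND3 1.18 to 1.69% and 1.80 to 3.17%. For these 3 genes the values of the sets did not overlap.

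A nuclear member, singled out after its values were seen, differed between the sets in its knockdown effect. NDUFV3, an accessory subunit of the NADH-oxidising end of complex I, had 861, 1065, 662 and 787 CPM in NS and 221, 294, 945 and 909 in Double. Double libraries 1 and 2 were far below and libraries 3 and 4 above all NS libraries but number 2. The log2 fold change was -1.91 in libraries 1 and 2 and 0.35 in libraries 3 and 4, a difference of 2.26 ± 0.35 (adjusted p = 0.00412), the 1 of 61 called for Double (33 of 61 above 0, 2 with an unadjusted p under 0.05). For BRG1 no member passed the adjusted test, but the difference between the sets was above 0 in 56 of 61 (median 0.37), and 24 had an unadjusted p under 0.05. For BRM it was above 0 in 41 of 61 (median 0.17), with none called and 9 at an unadjusted p under 0.05.

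The other genes of oxidative phosphorylation, from lists of assembly factors, ATP synthase and mitochondrial gene expression, gave few calls against NS, beside the shares of all genes given above. Of 18 nuclear ATP synthase genes, 0 were called in BRG1 and Double and 2 in BRM: ATP5F1, the stator subunit b (log2 fold change 0.59 ± 0.17, adjusted p = 0.0295), and ATPIF1, the inhibitor (log2 fold change 0.53 ± 0.16, adjusted p = 0.0423). Cytochrome c and CYC1 were not called. Of 14 complex I assembly factors, ACAD9 fell in BRG1 (log2 fold change -0.61 ± 0.14, adjusted p = 0.00688) and rose in BRM (log2 fold change 0.52 ± 0.15, adjusted p = 0.0337), from 41.1 ± 5.20 CPM in NS to 26.96 ± 3.79 and 59.04 ± 6.25 (SD), and NDUFAF4 fell in BRM (log2 fold change -0.77 ± 0.21, adjusted p = 0.0263). Of 30 factors for complexes II, III and IV, 3 were called, all in Double: SDHAF2, which attaches the flavin to SDHA, rose (log2 fold change 0.61 ± 0.13, adjusted p = 0.00482), as did COA7 (log2 fold change 0.48 ± 0.11, adjusted p = 0.00728), and COX16 fell (log2 fold change -0.89 ± 0.30, adjusted p = 0.0474). In the order BRG1, BRM and Double, the median log2 fold change was -0.19, 0.32 and 0.01 for ATP synthase, -0.07, 0.23 and -0.10 for complex I assembly and -0.04, 0.28 and 0.04 for assembly of the other complexes, beside 0.02, 0.03 and 0.02 over all genes. Without single libraries in turn, the calls of ACAD9 in BRG1, SDHAF2 and COA7 held. Those of ATP5F1, ATPIF1, ACAD9 in BRM, NDUFAF4 and COX16 each ended without at least 4 of them, BRM library 2 among them in BRM (adjusted p up to 0.28).

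Genes of mitochondrial gene expression were called at or below the background share. For mitochondrial DNA transcription and replication, 0, 0 and 1 of 14 were called in BRG1, BRM and Double, the 1 being MGME1, a DNA exonuclease, higher in Double (log2 fold change 0.45 ± 0.14, adjusted p = 0.0350). For mitochondrial RNA processing, 2, 1 and 0 of 21 were called: KIAA0391, the nuclease of mitochondrial RNase P (log2 fold change 0.45 ± 0.14, adjusted p = 0.0351), and FASTKD5 (log2 fold change 0.38 ± 0.13, adjusted p = 0.0463) rose in BRG1, and FASTKD1 fell in BRM (log2 fold change -1.03 ± 0.28, adjusted p = 0.0265). Each of these 4 calls ended without at least 4 single libraries in turn (adjusted p up to 0.208). The medians were 0.04, -0.16 and 0.08 for the first list and 0.01, -0.04 and 0.04 for the second. Of 75 mitochondrial ribosomal proteins (medians -0.12, 0.16 and 0.03), 9 were called in BRG1 (6 higher, 3 lower), 5 in BRM (3, 2) and 6 in Double (4, 2). MRPL15 (log2 fold change 0.70 ± 0.13, adjusted p = 0.00123) and MRPS10 (log2 fold change 0.72 ± 0.16, adjusted p = 0.00416) rose in BRG1, and MRPS21 (log2 fold change -1.57 ± 0.19, adjusted p = 0.000173) and MRPL34 (log2 fold change -1.14 ± 0.15, adjusted p = 0.000321) fell in BRM, and these calls held without each library in turn. In all, 6 of the 9 BRG1 calls, 2 of the 5 BRM calls and 0 of the 6 Double calls held so.

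Of 16 tested regulators of mitochondrial biogenesis, 7 were called in BRG1 (4 higher, 3 lower, 43.8% beside 22.5% of all genes), 1 in BRM and 1 in Double. Their median log2 fold changes were 0.03, -0.37 and -0.06. PPARD, a fatty acid receptor, rose in BRG1 (log2 fold change 1.71 ± 0.20, adjusted p = 4.32e-05) and fell in BRM (log2 fold change -1.11 ± 0.22, adjusted p = 0.00402), from 28.9 ± 6.39 CPM in NS to 94.7 ± 15.3 and 13.4 ± 3.31. PPARA fell in BRG1 (log2 fold change -0.90 ± 0.19, adjusted p = 0.00324) and Double (log2 fold change -1.37 ± 0.19, adjusted p = 0.000178). The PPARD and PPARA calls held without every library in turn. PRKAA1, a catalytic subunit of AMPK, rose in BRG1 (log2 fold change 0.62 ± 0.18, adjusted p = 0.0255), a call that ended without 6 of 8 single libraries (up to 0.148). The other BRG1 calls, named after their values were seen, were MYC and PRKAA2 (higher) and YY1 and PPARGC1A (lower). MYC and PRKAA2 each ended without 5 of 8 single libraries (adjusted p up to 0.121 and 0.179) and YY1 without NS library 1 or BRG1 library 3 (up to 0.0546). PPARGC1A, the coactivator PGC-1α, went from 17.8 ± 7.27 to 5.17 ± 4.16 CPM (log2 fold change -1.78 ± 0.55, adjusted p = 0.0311) and was not called without BRG1 library 1 or 2 or NS library 3 or 4 (up to 0.0917). Of the 7 BRG1 calls, 2 held without every library in turn.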

How the data were processed

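The 15 libraries of HepG2 cells were made with a Kapa mRNA kit, per the labels' protocols, and the deposited gene table holds estimated counts per gene symbol, as whole numbers made by the authors. The submitters' processing notes name kallisto, DESeq2 and GRCh38, without versions. No source used here names the transcript annotation or the strand setting. Counts of genes that share sequence or overlap depend on how reads were divided upstream. The estimated counts were used as they stand in the gene table, which holds 0 columns of other series. Totals of 11500149 to 27187991 counts per library set the precision, and the authors' own comparison tables were not used.

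All 15 libraries were fitted in 1 model with edgeR 4.0.16 in R 4.3.3 (limma 3.58.1): TMM factors, the filterByExpr filter by group, a robust quasi-likelihood F test, and Benjamini-Hochberg adjustment over the 14621 genes kept, with calls at an adjusted p under 0.05. SE is the log2 fold change divided by the square root of F. Values per library are CPM with TMM factors. The percent of counts from mitochondrial genes was compared by a two-sided exact permutation test over libraries. Effects within libraries 1 and 2 or 3 and 4 came from a fit with a mean for each group and set. The fit with group means was tried on simulated data in which only the BRG1 group was changed. Those data held no difference between the library sets, so the trial does not cover it.

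The rule for dropping pseudogenes would also remove MT-ATP6 and MT-ATP8 by their spelling; they were kept. The members and the gene lists were chosen with earlier results of these data known. Named were the complex II genes, complex IV isoforms, all mitochondrial members, up to 12 called nuclear members in each direction per knockdown and 5 per contrast between knockdowns, up to 2 called genes per list and direction, the largest increase and decrease, and members at 0 counts in a group. Others are said to be chosen after their values were seen. The results of 1 member are not reported here.

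The library numbers were treated as pairing samples where the deviations from group means of every same-numbered pair correlated at over 0.1. These deviations keep the difference between the library sets, which libraries of other numbers in a set also share. The correlations therefore cannot show pairing by number. The NS libraries passed this threshold with BRG1 (0.427 to 0.565) and Double (0.179 to 0.454), as did BRM with BRG1 (0.104 to 0.532). The correlations were 0.0733 to 0.527 between BRM and NS, 0.0578 to 0.659 between Double and BRG1 and 0.0133 to 0.589 between Double and BRM, which did not pass. Alternatives were a replicate block, a set term, each set alone, DESeq2 1.42.0, its size factors in edgeR, totals of nuclear genes, no filter, and leaving out each library. Leaving out libraries for the contrasts between knockdowns gene by gene, and for the other lists, was added after seeing the data. Gene positions are those of GENCODE v29, in which all 80 members were found, and promoters are RefSeq's for GRCh38.p14.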

Additional observations from a re-analysis of the deposited data

Results flagged for a closer look

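Among 114 groups of 4 libraries checked over 38 members, 3 held a library far from the others of its group, where chance gives about 1 group in 20. NDUFC2 of complex I stood at 166.1 CPM in BRG1 library 2, beside 204.6 to 210.7 in the other BRG1 libraries. In the Double group NDUFC2 stood at 173.5 CPM in library 2, beside 132.3 to 136.9 in the others. NDUFV2, a core subunit of complex I, stood at 113.6 CPM in NS library 3, beside 126.5 to 129.0 in the others.

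The effect of the double knockdown on NDUFV3 differed between libraries 1 and 2 and libraries 3 and 4. The log2 fold change in libraries 3 and 4 minus that in libraries 1 and 2 was 2.26 ± 0.35 (SE), with an adjusted p of 0.00412 in edgeR's quasi-likelihood test. What the library numbers stand for is not in the labels, so the source of this difference was not tested.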

How the results depend on the processing

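No call of a named member against NS changed direction in any alternative. All 3 BRG1 calls held in 48 of 48 refits, the 12 BRM calls in 124 of 180 and the 7 Double calls in 89 of 112. In the order BRG1, BRM and Double against NS, then BRM against BRG1, Double against BRG1 and Double against BRM, a set term gave 10, 24, 14, 35, 11 and 25 called nuclear members, and the replicate block 9, 21, 13, 30, 10 and 21. Where the pairing threshold was not passed (BRM with NS, and Double with BRG1 or BRM), the block is only a shared number, and its change of counts is not read as a change of effect. Libraries 1 and 2 alone gave 17 for BRG1, 20 for BRM, 35 for BRM against BRG1, 11 for Double against BRG1 and 16 for Double against BRM (39, 28.1, 50.1, 27.5 and 31.2% of all genes). Libraries 3 and 4 alone gave 7 for BRG1 and 12, 5 and 12 for the contrasts between knockdowns (25.5, 30.2, 10.9 and 23.2%). DESeq2 gave 5 for BRG1, 6 for Double against BRG1 and 11 for Double against BRM (27.2, 16 and 24.3%), and no filter gave 5 for BRM, 10 for BRM against BRG1 and 4 for Double against BRM (6.16, 18.2 and 9.58%). Leaving out 1 library gave 3 to 5, 4 to 14, 4 to 6, 7 to 17, 2 to 4 and 2 to 9, with 16.5 to 21.9, 6.46 to 13.7, 16 to 20.3, 26.5 to 33.1, 6.4 to 9.66 and 13.1 to 19% of all genes. In the same order, all genes were called at 39.1, 32, 38.6, 52.4, 25.5 and 39.1% with the set term, and the block gave 28.4, 22.3 and 36.3% where the pairing threshold was not passed. Of the mitochondrial members, leaving out 1 library gave 0 calls in every comparison with NS. The set term gave 1 for BRM (MT-ND4L, with 32% of all genes). The replicate block gave 1 for BRM (28.4%) and 1 for Double (35.6%), again MT-ND4L. Libraries 1 and 2 alone gave 1 for BRG1 (39%), and libraries 3 and 4 alone 1 for BRG1 (25.5%). No count is given for BRM in libraries 3 and 4 alone, where it has 1 library.

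The difference in the percent of counts from mitochondrial members turned negative in libraries 1 and 2 alone, at -0.39 points for BRG1, -1.70 for BRM and -0.711 for Double, and with the replicate block at -0.608 for BRM. Without 1 library it ran from -0.732 to 1.58 for BRG1, -0.792 to 1.70 for BRM and -0.912 to 1.40 for Double. It was negative for BRG1 without BRG1 library 1 (-0.459) or 2 (-0.402) or NS library 3 (-0.674) or 4 (-0.732), for BRM without BRM library 1 (-0.792) or NS library 3 (-0.551) or 4 (-0.608), and for Double without Double library 1 (-0.285) or 2 (-0.843) or NS library 3 (-0.855) or 4 (-0.912). The planned share without mitochondrial ribosomal and transfer RNA was not run, since the gene table holds 0 rows of those RNAs. The causes of these shifts were not tested. The SEs of the mitochondrial members, 0.37 to 0.91 on the log2 scale against NS, limit the size of difference that a test over all libraries can call.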

Other observations

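The table holds 387 gene symbols of nuclear copies of mitochondrial genes. They took 0.0209 to 0.138% of counts, with the lowest values in NS libraries 3 and 4 and the highest in NS library 2. Libraries 1 and 2 held 0.0702 to 0.138% and libraries 3 and 4 held 0.0209 to 0.0594%. How much of this is reads from mitochondrial messages was not tested.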
